A study of Arabidopsis thaliana with 18 samples.

Results

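Seedlings of the Arabidopsis thaliana pif4pif5 double mutant were compared with wild-type seedlings after 24 h of far-red light, over all 22746 probe sets of the array that are not Affymetrix controls. The comparison uses 3 arrays per genotype out of the 18 in the study, chosen by their titles. Seeds in the Columbia background were chilled for 3 days and exposed to red light for 3 h at 50 µmol/m2/s to start germination. The seedlings then spent 3 days in darkness, followed by 24 h under far-red light of 5 µmol/m2/s. The other groups, also with 3 arrays each, were wild type and pif4pif5 kept in darkness or given far-red light of 0.5 µmol/m2/s for 1 h. The RNA came from seedlings with no dissection stated, so fewer cells of a type and less RNA per cell cannot be told apart. The labels name no alleles of the double mutant. The conditions differ in duration, fluence rate and seedling age together, while both genotypes at 24 h share them. The labels do not say whether the 3 replicates, lettered A, B and C, were separate cultures, so the p-values reflect the spread among the arrays given, and that spread may be technical.

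PIF4 and PIF5 are basic helix-loop-helix transcription factors that bind the light-activated form of phytochrome. They promote the elongated growth of dark-grown and shaded seedlings, and light leads to their degradation. In continuous far-red light phytochrome A is the photoreceptor that drives de-etiolation, in which hypocotyl growth slows, cotyledons open and plastids prepare for photosynthesis.

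The 18 arrays had medians over the tested probe sets between 5.60 and 6.16, and those at 24 h between 5.61 and 5.84. Replicates at 24 h correlated between 0.9883 and 0.9916 in wild type and between 0.9823 and 0.9927 in the mutant, over all tested probe sets. Wild-type dark replicate C stood apart, with the highest median and the lowest correlation within its group (0.9673). It enters the 24 h comparison through the shared estimate of the spread alone. Without the wild-type dark group, a setting added after seeing the data, 149 probe sets were called at 24 h in place of 83, and all 83 were among them. PIF4 and PIF5 had no probe set assigned to them in the platform table used here, so no probe set named for them could be used to check the labels. The unassigned probe set 251497_at, described below, may read PIF5, which was not tested.

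After 24 h of far-red light, pif4pif5 had less transcript than wild type for a set of genes that included an expansin-like gene (EXLA2), a seed oil-body protein gene (OLEO3), a beta-tubulin gene (TUB6) and an Aux/IAA gene (IAA20). It had more transcript of HEME1, a uroporphyrinogen decarboxylase gene of the pathway to chlorophyll. In all, 83 probe sets were called, which is 0.365% of those tested. Of these, 65 (0.286%) were lower in the mutant and 18 (0.0791%) were higher. A call is a Benjamini-Hochberg adjusted p under 0.05 from limma, fitted to all 18 arrays with 1 mean per group. In the 6 fits that left out 1 array at 24 h, the calls of EXLA2, OLEO3, TUB6 and IAA20 held in 2, 3, 1 and 3. That of HEME1 held in 5. Falls whose calls held in all 6 included AT5G02580 and AT4G35720, known by locus tag only. TUB6 and IAA20 were picked after their values were seen. Levels are log2 intensities as deposited, and differences are the mutant minus wild type on that scale, with the standard error (SE) of the fit.

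The median difference was -1.11 over the 65 lower probe sets and 0.91 over the 18 higher ones, against 0.0 over all tested probe sets, of which 50.6% had a lower mean in the mutant. A difference of at least 2-fold was seen for 39 of the lower and 8 of the higher ones. The calls covered 36 single genes that fell and 6 that rose. Another 2 of the lower probe sets named several genes, and 27 lower and 12 higher ones had no gene assigned in the platform table. Just inside the threshold was TBL38 (adjusted p = 0.0496) and just outside was AT1G52530 (0.0504). The number of calls depended on single arrays. It was 178 without wild-type replicate C, 21 without wild-type replicate A and 24 without B, and it was 55, 34 and 38 without mutant replicate A, B or C. The calls held in every one of these 6 fits for 14 of the lower and 2 of the higher probe sets.

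**Figure D1:**
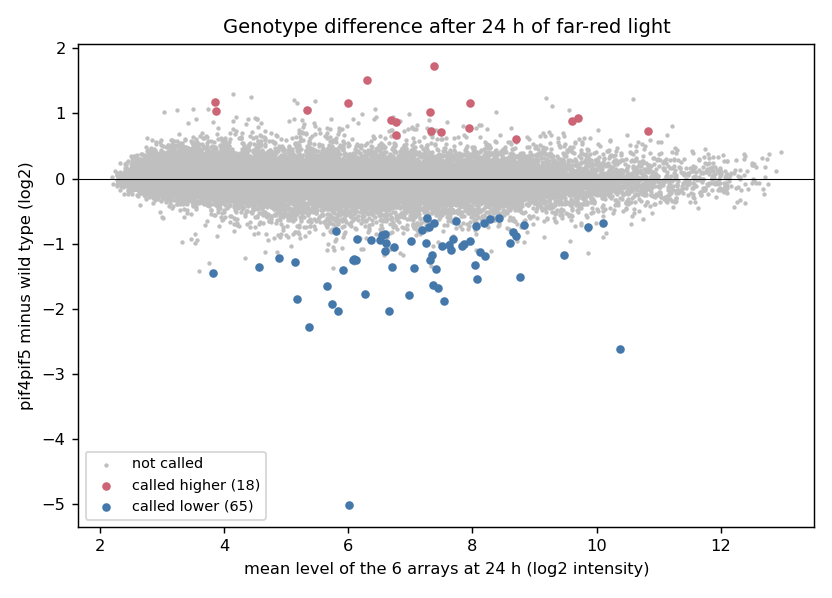
Difference between pif4pif5 and wild type after 24 h of far-red light (vertical axis, log2) against the mean level of the 6 arrays (horizontal axis, log2 intensity), 1 point per probe set. The 65 probe sets called lower reach down to -5.01, and the 18 called higher reach up to 1.73.

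Wild-type replicate C lay closer to the mutant than the other wild-type arrays did for many of the lower genes. Of the 65 lower probe sets, wild type read lowest on replicate C for 48, on A for 9 and on B for 8. The median level of these 65 was 7.89 on wild-type replicate A, 8.02 on B and 7.6 on C, and on the mutant arrays it was 6.89, 6.69 and 6.47. Replicate C thus had the lowest median in both genotypes. For the 18 higher probe sets the wild-type medians were 6.73, 6.92 and 6.46, and those of the mutant were 7.69, 7.76 and 7.72. The part of replicate C in these results was not tested beyond leaving out single arrays and a fit with the replicate letters.

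Among single genes, AT5G02580 fell most, and the gene table names it by its locus tag alone. Wild-type replicates A to C read 7.6, 7.78 and 7.63, and the mutant read 5.67, 5.8 and 5.42. The groups lay far apart, with a 4.1-fold difference (-2.04, SE 0.15, adjusted p = 6.68e-07 with limma). In wild type the gene stood at 7.89 ± 0.29 in darkness, 6.74 ± 0.21 at 1 h and 7.67 ± 0.10 at 24 h (SD, n = 3). In the mutant it stood at 7.30 ± 0.05, 5.51 ± 0.01 and 5.63 ± 0.20. Wild type at 24 h was thus near its dark level, and the mutant at 24 h near its own level at 1 h.

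Other genes known by locus tag only fell with calls that held without any 1 of the 6 arrays. AT5G57670 read 6.71, 6.62 and 6.8 in wild type and 4.93, 4.28 and 5.15 in the mutant (-1.93, adjusted p = 0.0049). AT4G35720 read 7.87, 8.06 and 7.68 against 6.35, 6.29 and 5.61 (3.46-fold lower, adjusted p = 2.15e-04). In both, every mutant array was more than 1 log2 unit below every wild-type array. AT4G25260 read 9.71, 9.8 and 9.05 against 8.12, 8.18 and 7.74 (2.84-fold lower), with wild-type replicate C the nearest to the mutant. AT3G54510 read 6.54, 6.68 and 6.64 against 5.05, 5.19 and 5.41 (2.65-fold lower, adjusted p = 1.29e-04), and its wild-type arrays were tightly grouped. AT4G11610 read 5.4, 5.21 and 5.12 against 3.7, 3.83 and 4.14 (-1.36, adjusted p = 7.88e-04). All mutant readings of AT5G57670 and AT4G11610 lay within the range of 2.44 to 5.17, so no fold is given for them. That range was read by the 27 Bacillus control probe sets on these arrays. For AT3G54510, mutant replicate A (5.05) lay in it too. AT4G11610 was higher in darkness in both genotypes, at 7.82 ± 0.23 in wild type and 7.84 ± 0.17 in the mutant. AT1G01390, which was picked here because its call also held in all 6 fits, read 7.18, 7.19 and 7.08 against 6.19, 6.08 and 5.83 (2.16-fold lower, adjusted p = 0.0049).

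Of the genes with symbols that fell, EXLA2 encodes an expansin-like protein, a relative of the expansins that loosen cell walls. It read 8.46, 8.55 and 7.33 in wild type and 7.13, 6.82 and 6.21 in the mutant, a 2.63-fold difference (adjusted p = 0.0228). The genotypes did not overlap, but wild-type replicate C stood close to the highest mutant array. In darkness and at 1 h the mean EXLA2 level was between 8.49 and 8.71 in both genotypes. TUB6, a beta-tubulin gene whose product forms microtubules, read 10.53, 10.55 and 10.23 in wild type and 9.7, 9.77 and 9.79 in the mutant (1.61-fold lower, adjusted p = 0.0192). IAA20, of the Aux/IAA family of auxin-response repressors, read 6.85, 6.41 and 6.56 against 5.61, 5.57 and 5.85 (1.9-fold lower, adjusted p = 0.0166). TBL38 belongs to a family named after trichome birefringence, whose members act in acetylation of wall polysaccharides, and fell by 0.74 (adjusted p = 0.0496). UPB1, a basic helix-loop-helix factor known from control of root growth, read 7.48, 7.58 and 7.43 against 6.73, 6.33 and 6.55 (-0.96, adjusted p = 0.0412). The UPB1 difference was -0.87 in darkness and -0.69 at 1 h, without a call there. TUB6, IAA20, TBL38 and UPB1 were singled out after their values were seen, because they carry names. Each of the named calls in this paragraph was lost in at least 3 of the 6 fits that left out an array, with adjusted p up to 0.251.

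OLEO3, an oleosin of the oil bodies that store seed lipid, fell 2.36-fold (-1.24, SE 0.22, adjusted p = 0.0166). Wild type read 7.02, 6.96 and 6.14 and the mutant 5.51, 5.79 and 5.09, so that the genotypes did not overlap. The reading of mutant replicate C lay within the range of the Bacillus controls. In darkness OLEO3 stood at 8.52 ± 0.13 in wild type and 8.40 ± 0.22 in the mutant, and at 1 h at 8.18 ± 0.19 and 8.19 ± 0.24. The other measured gene of seed reserves, ICL, encodes isocitrate lyase, which helps turn stored lipid into sugar. It was at 11.43 in wild type and 11.59 in the mutant (difference 0.16, adjusted p = 0.883). The call of OLEO3 was lost in 3 of the 6 fits without 1 array (adjusted p up to 0.132).

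The remaining largest falls were AT5G38710 (3.42-fold), AT3G55940 (3.13-fold), AT5G66590 (2.6-fold), P1R1 (2.55-fold) and AT1G29195 (2.39-fold). Mutant replicates B and C of AT3G55940 (4.57 and 4.7) and C of AT5G38710 (5.1) lay within the range of the Bacillus controls. In all 5 genes wild-type replicate C was the lowest wild-type array. The clearest case was AT5G38710, at 7.55, 7.77 and 6.15 in wild type against 5.8, 5.25 and 5.1 in the mutant (adjusted p = 0.0234). The calls of these 5 genes were lost in 3 or 4 of the 6 fits without 1 array, with adjusted p up to 0.177. The other 18 single genes that fell, listed by locus tag only, had differences between -1.25 (AT1G12070) and -0.61 (AT3G54200).

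**Figure D2:**
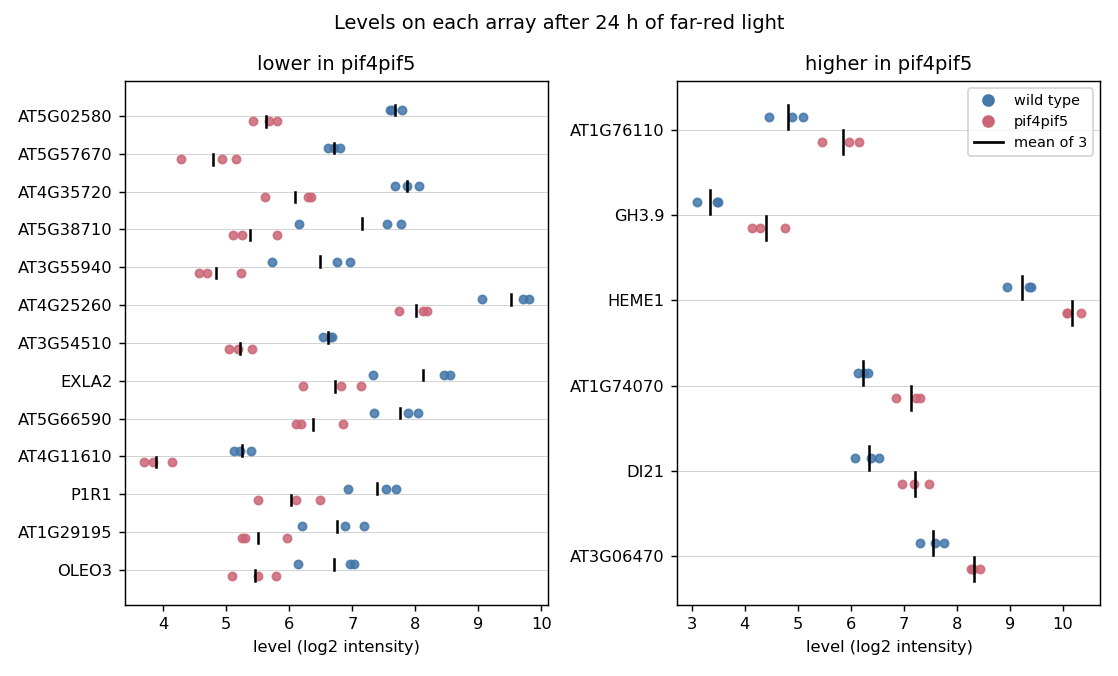
Levels on each array at 24 h (horizontal axis, log2 intensity) of the 12 single genes with the largest falls, OLEO3 and the 6 single genes that rose. Points are the 3 arrays of a genotype and the bar is their mean. Genes were chosen among those whose genotypes do not overlap. In wild type AT5G38710 spans from 6.15 to 7.77, and AT3G54510 from 6.54 to 6.68.

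Among the single genes that rose, HEME1 kept its call in the most fits without 1 array. Wild type read 9.4, 9.37 and 8.94 and the mutant 10.09, 10.35 and 10.08, a 1.9-fold difference (0.93, SE 0.16, adjusted p = 0.0154). It held in 5 of the 6 (adjusted p up to 0.077). HEME1 was also higher on average in the mutant in darkness (0.54) and at 1 h (0.70), without a call there, and its genotype difference at 24 h was not distinguishable from those (interaction 0.39 and 0.23, adjusted p = 0.871 and 1.0).

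The other 5 single genes that rose were AT1G76110 (1.05), GH3.9 (1.04), AT1G74070 (0.90, 1.86-fold), DI21 (0.87, 1.83-fold) and AT3G06470 (0.78, 1.72-fold), as log2 differences. GH3.9 belongs to the GH3 family, whose enzymes join auxin and other acids to amino acids. It read 3.47, 3.49 and 3.09 in wild type and 4.28, 4.14 and 4.75 in the mutant (adjusted p = 0.0282), all within the range of the Bacillus controls. The wild-type readings of AT1G76110, at 4.89, 4.46 and 5.09, lay in that range too. DI21, drought-induced 21, read 6.54, 6.08 and 6.39 against 7.48, 7.19 and 6.96 (adjusted p = 0.0276). Its wild-type level was 7.06 ± 0.29 in darkness and 6.34 ± 0.23 at 24 h, and that of the mutant was 7.33 ± 0.17 and 7.21 ± 0.26 (SD, n = 3). The calls of these 5 genes held in only 1 or 2 of the 6 fits without 1 array, with adjusted p up to 0.251.

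Probe sets without an assigned gene held the greatest differences. The probe set 251497_at read 8.17, 8.54 and 8.84 in wild type and 3.25, 3.79 and 3.49 in the mutant, where it lay within the range of the Bacillus controls. The difference was -5.01 (SE 0.31, adjusted p = 5.53e-08), with no fold given against readings in that range. It was called in darkness (-3.56, adjusted p = 2.98e-05) and at 1 h (-4.57, adjusted p = 5.11e-07) too, as the single probe set called lower in all 3 conditions. Its mutant means in darkness and at 1 h were 3.61 and 3.37. By number it lies between the probe sets of AT3G59040 and AT3G59070, loci on either side of PIF5. Whether it reads PIF5 itself was not tested. The probe set 245325_at fell from a high level, at 11.81, 11.6 and 11.62 in wild type against 8.88, 9.29 and 9.04 in the mutant (6.11-fold, adjusted p = 2.09e-09). Of the rises, 258497_at read 6.57, 6.86 and 6.11 against 8.28, 8.31 and 8.13 (3.31-fold, adjusted p = 0.0374), and its call was lost in each fit without 1 array. The probe set 265724_at read 5.78, 5.26 and 5.6 against 7.01, 7.15 and 7.02 (2.85-fold, adjusted p = 7.33e-05), and its call held in all 6.

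The genotype difference at 24 h was tested against that in darkness and against that at 1 h. Against darkness 3 probe sets were called (0.0132% of those tested; 0.00879% lower and 0.0044% higher), and 5.88% had an unadjusted p under 0.05. Against 1 h 1 was called (0.0044%), and 3.0% had an unadjusted p under 0.05. The probe set 245325_at was called in both. Its genotype difference was -0.30 in darkness, -0.71 at 1 h and -2.61 at 24 h, so that the difference grew by -2.31 from darkness (adjusted p = 5.27e-06) and by -1.90 from 1 h (adjusted p = 1.20e-04). Both calls held in 12 of 12 fits without 1 array. AT5G02580 differed by -0.59 in darkness, -1.23 at 1 h and -2.04 at 24 h. Its growth from darkness was -1.45 (adjusted p = 0.0293), with adjusted p from 0.00384 to 0.142 without 1 array and a call in 4 of 12 such fits. The probe set 265724_at differed by 0.09, 0.30 and 1.51, and its growth from darkness of 1.42 (adjusted p = 0.0343) was likewise called in 4 of 12 fits (up to 0.18). In the other 80 probe sets called at 24 h, a difference from the genotype effect in darkness was not detected. The wild-type dark arrays weigh on this test, since the count of calls against darkness was 118 without wild-type dark replicate A and between 1 and 4 without any other array.

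**Figure D3:**
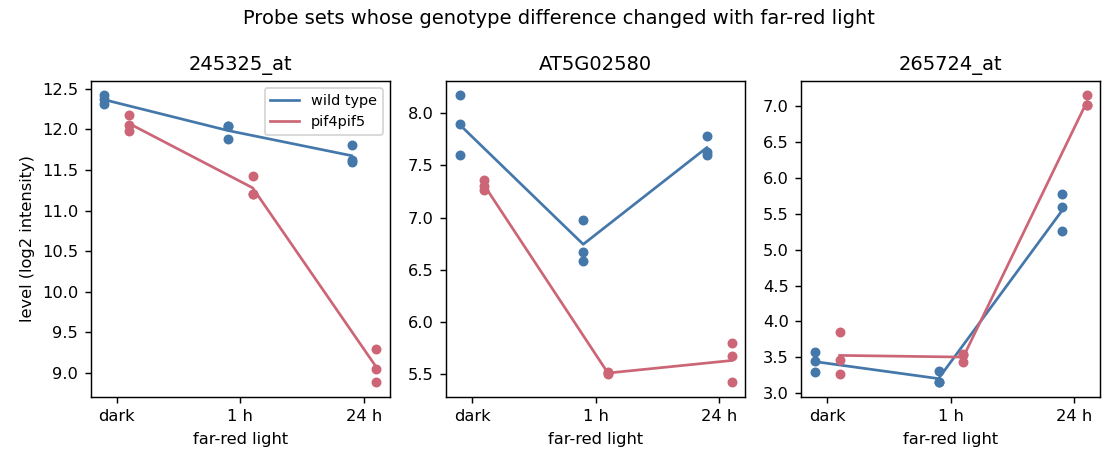
Levels (vertical axis, log2 intensity) of 245325_at, AT5G02580 and 265724_at in darkness and after 1 h and 24 h of far-red light. Points are single arrays and lines join the means of 3. At 24 h 245325_at is at 11.68 in wild type and 9.07 in the mutant, against 12.37 and 12.07 in darkness.

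The probe sets called at 24 h were followed on the arrays from darkness and 1 h, whose levels do not enter the 24 h difference. These arrays enter the calls through the shared estimate of the spread. In darkness 62 of the 65 lower probe sets had a lower mean in the mutant, where 61.7% of all tested probe sets did, and 1 was called (0.0264% of all were in either direction and 0.0044% lower). At 1 h 56 of the 65 did, where 54.9% of all did, and 3 were called (251497_at, AT5G02580 and AT5G26270), against 0.0264% of all in either direction and 0.0132% lower. The median difference of the 65 was -0.31 in darkness and -0.21 at 1 h, against -0.05 and -0.02 over all tested probe sets. Of the 18 higher probe sets 15 had a higher mean in the mutant in darkness and 17 at 1 h, with medians of 0.20 and 0.33. By limma 0 of them were called in either condition (0.022% and 0.0132% of all were called higher). AT5G26270 stands for the genes with like differences throughout, at -0.87, -1.12 and -0.89 in darkness, at 1 h and at 24 h.

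**Figure D4:**
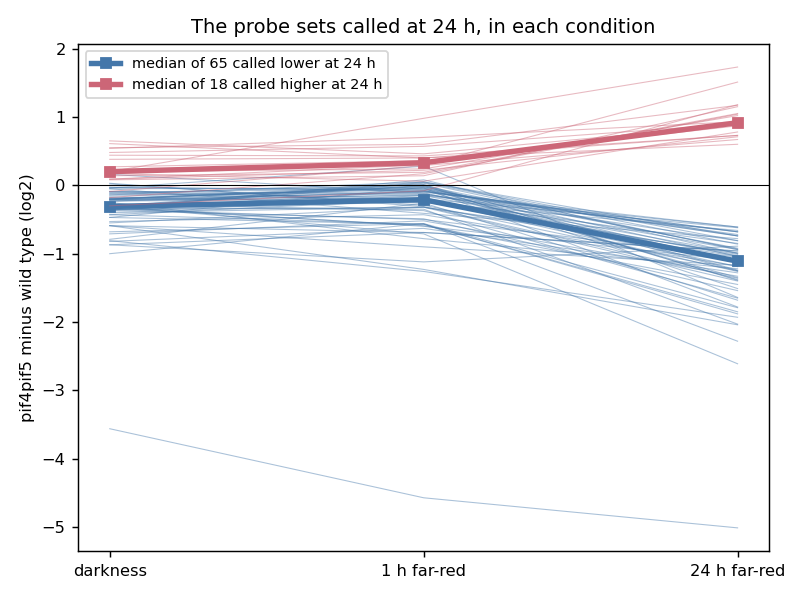
Difference between pif4pif5 and wild type (vertical axis, log2) in darkness, at 1 h and at 24 h for the 83 probe sets called at 24 h. Thin lines are probe sets, and squares are the medians of the 65 lower and the 18 higher ones, which go from -0.31 to -1.11 and from 0.20 to 0.91. The 24 h differences chose these probe sets, with a spread estimated over all 18 arrays.

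Conversely, AT5G48490, a locus named by its tag that was called higher in the mutant in darkness (2.18) and at 1 h (1.92), differed by 1.22 at 24 h without a call (adjusted p = 0.125). In wild type, 1 h of far-red light against darkness lowered 9 and raised 1 of the 65 lower probe sets by the same test, and raised 2 of the 18 higher ones (0.787% of all were called). The mean was lower at 1 h than in darkness for 54 of the 65, where it was for 74.6% of all tested probe sets. The single genes among the 9 were AT4G35720 (-1.58), AT4G16670 (-1.39) and AT5G02580 (-1.15), and the one raised was AT1G01390 (0.90). That comparison shares no array with the one at 24 h.

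The gene lists were described by their measured members, which are those named alone by a probe set. The number of measured members was small for most lists, because many probe sets of the array have no gene assigned in the platform table. Of the 30 light signalling genes 2 were measured. FHL, which helps phytochrome A enter the nucleus, read 5.55, 5.84 and 5.22 in wild type and 5.02, 4.6 and 4.44 in the mutant (-0.86, SE 0.27, adjusted p = 0.304). HYH, a bZIP factor of photomorphogenesis, was at -0.12 (adjusted p = 0.964), against 0.72 in darkness and 0.64 at 1 h. Neither was called at 24 h.

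The shade avoidance and auxin lists had no called member, and their medians lay below that of all probe sets. The lists are not separate, since IAA29 is in both. XTH33, which sits at the shade avoidance median, is also in the cell wall expansion list. The 5 measured of 21 shade avoidance genes had a median of -0.37 at 24 h, against -0.27 in darkness and 0.0 at 1 h. At 24 h 1 of them did not overlap between the genotypes (13.2% of all probe sets did not overlap, 6.41% with the mutant lower). IAA29, an Aux/IAA gene, read 8.46, 8.3 and 7.81 against 7.82, 7.43 and 7.26 (-0.69, adjusted p = 0.251), so that the genotypes overlapped. BIM1, a basic helix-loop-helix factor of brassinosteroid signalling, was at -0.54 (adjusted p = 0.319), the homeobox gene HAT2 was at -0.26, and the auxin synthesis gene YUC2 was at -0.01 and turned to above 0 with other scalings (up to 0.03). Of 24 auxin response genes 5 were measured, with a median of -0.38 at 24 h and 0 called. In darkness and at 1 h the median of these 5 genes was -0.27 and -0.18. Taken up after the values were seen, the 7 genes with Aux/IAA symbols had a median of 0.0 with IAA20 as the called member, and the 5 with GH3 symbols had -0.25 with GH3.9 as the called member. GH3.3, an auxin-conjugating enzyme gene, read 8.9, 8.7 and 8.18 against 7.95, 7.8 and 7.91 (-0.70, adjusted p = 0.193).

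All 11 measured of 29 cell wall expansion genes had a lower mean in the mutant, between -0.97 and -0.12 with a median of -0.46, where 50.6% of all tested probe sets had a lower mean. The genotypes did not overlap, with the mutant lower, for 4 of the 11, and for 6.41% of all. None passed the limma test at an adjusted p under 0.05. On the median over the 11, the wild-type arrays read 7.28, 7.82 and 6.21 and the mutant arrays 6.63, 6.65 and 6.12. Wild-type replicate C thus lay below mutant replicates A and B on this median, and wild-type replicates A and B lay above all 3 mutant arrays. XTH33, for one, read 6.16, 6.27 and 5.21 against 5.79, 6.07 and 4.69. All 11 means also lay below 0 with quantile normalization and with the arrays shifted to one median. EXPA8, an expansin gene, read 10.61, 10.43 and 9.95 in wild type and 9.73, 9.76 and 9.46 in the mutant (-0.68, SE 0.16, adjusted p = 0.0891). XTH18, of the enzymes that cut and rejoin xyloglucan, was at -0.97 with a wide error (SE 0.36, adjusted p = 0.417), and its close paralog XTH19, whose signal it may share, was at -0.69. In darkness and at 1 h the median of the same 11 genes was -0.08 and 0.06. Over the 18 genes with expansin symbols, a family taken up after the values were seen, the median was -0.10 and EXLA2 was the called member. All 7 genes with tubulin symbols, also taken up later, lay below wild type, from -0.72 (TUB1) to -0.18 (TUA6) with a median of -0.38, under both other scalings too, and TUB6 was the called member.

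Of 9 measured chlorophyll synthesis genes (26 in the list), HEME1 rose, and 8 had a higher mean in the mutant at 24 h. The median difference was 0.38 at 24 h, against 0.29 in darkness and 0.41 at 1 h. At 24 h the genotypes did not overlap, with the mutant higher, for 5 of the 9, and for 6.75% of all probe sets. CHLI2, a magnesium chelatase subunit gene, was at 0.67 (adjusted p = 0.327) and CHLM, which methylates magnesium protoporphyrin, at 0.46 (adjusted p = 0.2). Of 7 measured photosystem and light harvesting genes (45 in the list) 0 were called, and the median difference was 0.18 at 24 h against 0.63 in darkness and 0.49 at 1 h. PSAN, a photosystem I subunit gene, was at 11.96 in wild type and 12.06 in the mutant. LHCB4.3, a minor antenna gene of photosystem II, stood the other way, at 8.12, 8.1 and 7.59 against 7.19, 7.15 and 7.36 (-0.71, adjusted p = 0.175). For 0 of the 7 did limma call a change of the genotype difference from darkness or from 1 h. Among carbon fixation genes 3 were measured, at a median of 0.05, and PRK, phosphoribulokinase, was at 0.29 (adjusted p = 0.716). LYC, lycopene cyclase, the single measured carotenoid gene, was at -0.05 (adjusted p = 0.984). The 69 probe sets of plastid-encoded genes, a family taken up after the values were seen, had a median of -0.13 with 0 called. Their median was 0.05 in darkness and -0.39 at 1 h. At 24 h 56 of them had a lower mean in the mutant, where 50.6% of all tested probe sets did. With quantile normalization and with the arrays shifted to one median, 52 and 47 did.

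**Figure D5:**
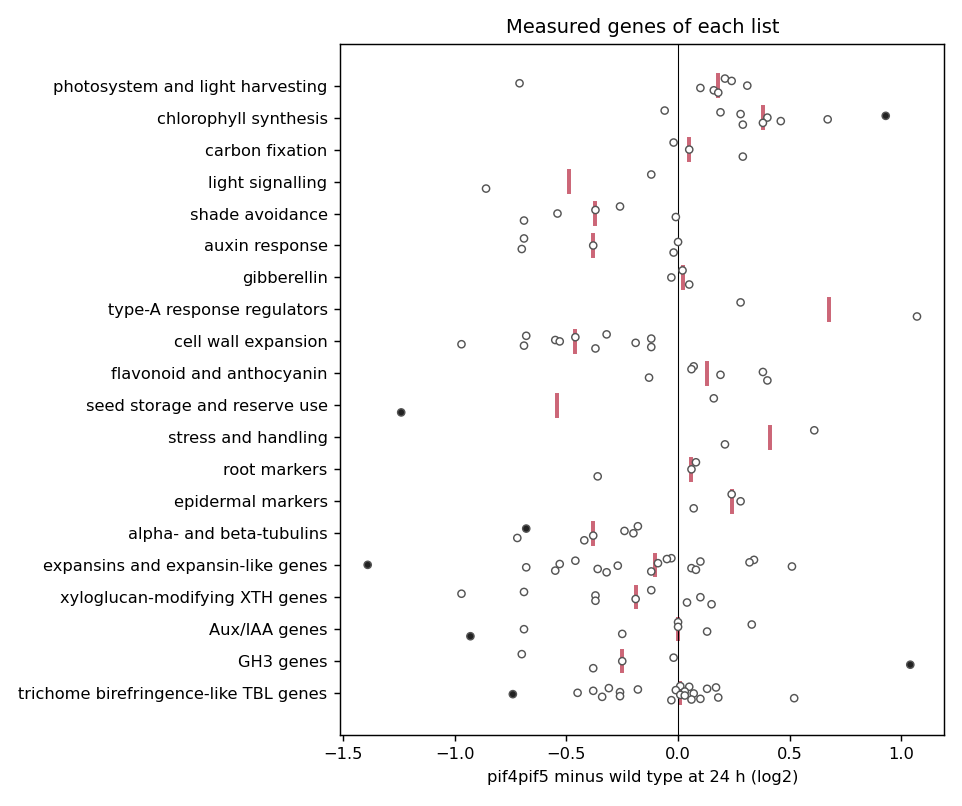
Difference between pif4pif5 and wild type at 24 h (horizontal axis, log2) for the measured genes of each list and symbol family with at least 2 of them; the trichome birefringence-like and XTH families have medians of 0.01 and -0.19. Filled points were called, open points were not, and the red bar is the median. The 11 cell wall expansion genes lie between -0.97 and -0.12, and the chlorophyll synthesis genes reach up to HEME1 at 0.93.

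Hormone, pigment and clock genes of the lists were not called. The gibberellin receptor genes GID1A, GID1B and GID1C differed by between -0.03 and 0.05 (adjusted p = 0.986 for GID1C). EIN3, a transcription factor of ethylene signalling, was at -0.26 (adjusted p = 0.769). RR16, a type-A response regulator of cytokinin signalling, read 2.81, 3.07 and 3.02 in wild type and 3.25, 5.25 and 3.61 in the mutant (adjusted p = 0.23), with replicate B standing apart. The 6 flavonoid genes had a median of 0.13, and UF3GT, an anthocyanin glycosyltransferase gene, was at 0.40 (adjusted p = 0.681) with mutant replicate B again the highest, at 5.48 against 4.42 and 4.53. GI, of the circadian clock, was at -0.09 (adjusted p = 0.971). COR15A, a cold and drought response gene of the stress list, was at 0.61 (adjusted p = 0.479). The COR15A readings at 24 h lay within the range of the Bacillus controls. Those of RR16 and UF3GT did too, except on mutant replicate B. The brassinosteroid, starvation and vascular lists had 0 measured members.

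Few markers of organs and cell types were measured, with 3 for roots, 3 for the epidermis and 0 for vascular tissue. PYK10, a beta-glucosidase gene of roots, was at 11.67 in wild type and 11.75 in the mutant. The root hair expansin genes EXPA7 (0.06) and EXPA18 (-0.36, adjusted p = 0.765) read at most 4.12 on any array at 24 h, within the range of the Bacillus controls. The stomatal lineage genes SPCH (0.24, adjusted p = 0.753), MUTE (0.28) and FMA (0.07) had a median of 0.24. All SPCH and MUTE readings at 24 h, and some of those of FMA, lay in that range too. None of these 6 root and epidermal genes was called by limma (0.365% of all probe sets were).

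The genes nearest to the mutated loci were followed next. Within 5 loci on either side of PIF4, 4 genes were measured, and within 5 loci of PIF5 another 4. None was called with limma, at unadjusted p under 0.05 for 0 of the 8, and the differences at 24 h lay between -0.33 (AT2G42990) and 0.34 (AT2G42980). AT3G59070, near PIF5, was at -0.01. Probe sets without an assigned gene could not be placed by locus and are not among the 8. They include 251497_at (-5.01 at 24 h), numbered between the probe sets of AT3G59040 and AT3G59070. By chromosome, the share of single-gene probe sets called ran from 0.255% on chromosome 3 to 0.366% on chromosome 5.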

How the data were processed

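The data were 18 Affymetrix arrays of Arabidopsis seedlings. The deposited values were log2 intensities per probe set, which the authors made with RMA, per the submitters' processing notes. RMA corrects the background, normalizes between arrays and summarises each probe set. The medians of the deposited values still ran from 5.60 to 6.16, so shifts between whole arrays were not wholly removed. The sources used here give neither the genome build nor a software version.

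Of 22810 probe sets 64 Affymetrix controls were left out of the tests. Probe sets were named through GEO's platform annotation and a RefSeq gene table (TAIR10.1). It gave 1 gene for 13513 probe sets, several for 503 and none for 8730, and 13436 of the single genes matched a locus tag. The platform annotation can be old.

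limma 3.58.1 in R 4.3.3 (statmod 1.5.0) fitted 1 mean per group to all 18 arrays, with 12 residual and 5.91 prior degrees of freedom. The contrasts were the mutant minus wild type at 24 h, and the same difference minus that in darkness and minus that at 1 h. Calls needed a Benjamini-Hochberg adjusted p under 0.05. The fit was tested on simulated data. With 3 arrays per group their number limits the precision.

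The text names the genes near PIF4 and PIF5, the 12 largest rises and falls among called single genes whose genotypes do not overlap, up to 4 called members of each of 20 gene lists (or else the member of lowest p), and up to 2 unassigned probe sets in each direction. Genes outside it are said to be chosen afterwards or serve to describe a list. The genes, lists and tests were chosen with earlier results of these data known. Alternatives covered the arrays fitted, scaling, dim and unassigned probe sets, array weights, the variance trend, a replicate block and leaving out each array.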

Additional observations from a re-analysis of the deposited data

Results flagged for a closer look

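The genotype difference at 24 h departed from that in darkness for 3 probe sets by the interaction test of limma. For 245325_at the change was -2.31, and for AT5G02580 it was -1.45. For 265724_at it was 1.42. Against 1 h the change of 245325_at was -1.90. In wild type 265724_at read 3.44 ± 0.13 in darkness and 5.55 ± 0.26 at 24 h, and in the mutant 3.53 ± 0.29 and 7.06 ± 0.08 (SD, n = 3), so that the level at 24 h was higher in both genotypes.

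Among the Affymetrix control probe sets, which were left out of the tests, AFFX-r2-At-U12639_at stood at 5.29 ± 0.17 in the mutant and 3.21 ± 0.31 in wild type at 24 h (SD, n = 3). The mutant arrays read 5.30, 5.12 and 5.46 and the wild-type arrays 2.95, 3.54 and 3.13, without overlap. In darkness it was at 4.56 against 3.24, and at 1 h at 4.58 against 2.97. The other 63 control probe sets differed by between -0.42 and 0.23 at 24 h.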

How the results depend on the processing

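Of the 83 calls at 24 h, 12 were among the 13 made with the 6 compared arrays fitted alone, where fewer degrees of freedom remain. With array weights 225 probe sets were called, 82 of the 83 among them. Fitting single-gene probe sets alone gave 40 calls, and a 2-fold minimum left 47. Leaving out 1 array gave 21 to 178 calls, and leaving out the wild-type dark group gave 149, a setting chosen after seeing the data. The count stayed between 87 and 118 with quantile normalization, arrays shifted to one median, dim probe sets left out, a variance trend, the replicate block and all dark arrays left out. The share of calls that were higher was 21.7%, and it was 8.43% without wild-type replicate C, 33.3% without wild-type replicate B and 28.6% without A. Against darkness 3 probe sets were called, and 1 each with the compared groups alone, with single-gene probe sets alone and with the replicate block. Leaving out 1 array gave 1 to 118. Against 1 h 1 was called, 9 with array weights and 0 with single-gene probe sets alone, a setting without the probe set concerned (245325_at). Leaving out 1 array gave 1 to 8, with 8 reached without wild-type 24 h replicate C. Each of the 83 called differences kept its sign in every setting whose fit held its probe set. The fit of single-gene probe sets leaves out the called ones with several genes or none, and the fit without dim probe sets leaves out the dimmest. The cause of these changes was not tested.

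The labels do not say whether the replicate letters pair the arrays, and the values were mixed. The correlation of deviations from the group means was 0.0152 for A, 0.131 for B and 0.346 for C. That of C was the highest of any pair, and C with another letter lay between -0.234 and -0.0686. Wild-type B correlated most with mutant B, but wild-type A also correlated most with mutant B (0.133). A shared effect of replicate C was not tested apart from the replicate block. With the replicate block 118 probe sets were called at 24 h, 82 of the 83 among them.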
